A study of Mus musculus with 20 samples.

Results

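The genes described here are 10 members of transforming growth factor beta (TGF-beta) and bone morphogenetic protein (BMP) signaling, measured in keratinocytes of mice that lose the steroid enzyme gene Cyp11b1 in the epidermis. They were taken by symbol from the authors' table of 25719 genes, and all 10 were found: the ligand genes Tgfb1 and Tgfb2, the receptor genes Tgfbr1 and Tgfbr2, the Smad genes Smad3, Smad6 and Smad7, and the target genes Id1, Id2 and Id3. Of these, 9 were among the 12424 genes with enough reads for testing, and Smad6 was not. The study sorted keratinocytes by flow cytometry from the ear and back skin of 20 mice and sequenced their total RNA, with 1 library per mouse and 5 mice in each of 4 groups. The cKO mice are K14-CreERTam x Cyp11b1 L2/L2, that is, both floxed Cyp11b1 alleles and a Cre recombinase that tamoxifen switches on in cells using the keratin 14 promoter. The control mice (fl_ctrl) are Cre-negative Cyp11b1 L2/L2 littermates. Every mouse, controls included, received tamoxifen on 5 days in a row and cells were taken on day 6. Topical mice had it in ethanol on shaved back skin and on the ears, and systemic mice had it in oil and ethanol by intraperitoneal injection. The volume given differed too, so that route, volume, vehicle and shaving cannot be told apart. Libraries are named below by group and by the number in their label.

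TGF-beta and BMP ligands are secreted dimers that bring type I and type II receptor kinases together at the cell surface. The activated type I receptor phosphorylates receptor Smads (Smad2 and Smad3 for TGF-beta, Smad1, Smad5 and Smad9 for BMP), which enter the nucleus with Smad4 and bind short DNA elements. In skin, TGF-beta restrains keratinocyte division, and BMP signals act in the hair follicle and in epidermal differentiation. The Id proteins, whose genes are classical BMP targets, are helix-loop-helix proteins without a DNA-binding part that hold back differentiation factors.

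The DNA near the start sites of the members is shown first, because Smad proteins act through such elements. RefSeq windows of the GRCm38.p6 build, each with 250 bases before and 50 after the start, were read for 8 of the 10 members. Id1 and Smad7 are not shown. The searched motifs, on both strands, were the Smad box CAGAC, the Smad palindrome GTCTAGAC and the GC-rich element GGCGCC. Of 32851 mouse promoter windows of the same length, 49.6% hold the box, 11.9% the GC-rich element and 0.213% the palindrome. The sequences below run 5′ to 3′ along the gene, and capitals mark the motif match.

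The 250 bases before the start of Tgfbr2, the member whose level changed (chr9:116175364-116175613, minus strand), hold 1 Smad box, with its first base at -160 from the start.
Tgfbr2 promoter: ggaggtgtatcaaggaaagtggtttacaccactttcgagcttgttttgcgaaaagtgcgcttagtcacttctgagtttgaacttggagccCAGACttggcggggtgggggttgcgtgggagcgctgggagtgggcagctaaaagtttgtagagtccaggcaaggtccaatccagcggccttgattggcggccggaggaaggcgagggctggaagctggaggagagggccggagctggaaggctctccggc

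Short stretches of 30 bases around each match are given for the inhibitory Smad and the Id genes, since these are known Smad targets. The Smad6 stretch (chr9:64022045-64022074, minus strand) carries the palindrome across the start site. The Id2 stretch (chr12:25096306-25096335, minus strand) carries the GC-rich element, with its first base at -231 from the start. The Id3 stretches (chr4:136143643-136143672 and chr4:136143742-136143771, plus strand) carry Smad boxes with first bases at -167 and -68, the latter on the opposite strand. All these distances refer to the RefSeq starts. In the GENCODE annotation used below, Id2 begins at chr12:25097140 and Id3 at chr4:136143497. By those coordinates the Id2 and Id3 stretches lie inside the annotated genes, not before them.
Smad6 site 1: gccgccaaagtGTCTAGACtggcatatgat
Id2 site 1: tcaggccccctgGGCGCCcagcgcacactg
Id3 site 1: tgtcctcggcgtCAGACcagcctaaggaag
Id3 site 2: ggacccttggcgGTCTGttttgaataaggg

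In the windows of Tgfb2 there were 2 Smad boxes, and of the 2 windows of Tgfbr1 the upstream one held 1 GC-rich element and the other 1 Smad box. Those of Tgfb1 and Smad3 held none of the 3 motifs. These matches describe letters and were not measured as binding.

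Of the 9 members tested, 1 changed in 1 of 5 comparisons: Tgfbr2 was lower after injection than after topical treatment in cKO mice. No member had a called change between cKO and control mice in either route. In the topical comparison of genotypes 0 of 9 members were called by edgeR's quasi-likelihood test (adjusted p under 0.05), against 0.129% of all genes, and 1 had an unadjusted p under 0.05, against 5.66%. In the systemic comparison of genotypes 0 of 9 were called, against 1.89%, and 1 had an unadjusted p under 0.05, against 15.3%. For the interaction, which asks whether the genotype effect differs between routes, 0 of 9 were called, against 0.25%, with 1 at an unadjusted p under 0.05, against 14%. Between the routes in controls 0 of 9 were called, against 18.3% of all genes, and 2 had an unadjusted p under 0.05, against 32.9%. Between the routes in cKO 1 of 9 was called, which is 11.1% against 9.22% of all genes (4.02% were called lower), and 2 had an unadjusted p under 0.05, against 23.1%. A share of 1 in 9 is near the background and is no result about the genes as a set. DESeq2's Wald test called 0, 0, 0, 0 and 2 members in the same order, against 0.338%, 4.5%, 2.58%, 22.3% and 12.4% of all genes.

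For every one of the 10 members the CPM values of the groups compared overlapped in all 4 comparisons of 2 groups. Groups without overlap were found in 1.4% of all genes for genotype in topical mice, 1.94% for genotype in systemic mice, 13.8% for route in controls and 7.39% for route in cKO. CPM are read counts scaled to a common library size, here with TMM, the edgeR factor that also corrects for differences in composition. The median log2 fold change of the 9 members was 0.11 in the topical and 0.18 in the systemic genotype comparison, -0.095 for the interaction, -0.024 for route in controls and -0.093 for route in cKO. Over all genes tested the medians lay between -0.028 and 0.020.

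**Figure D1:**
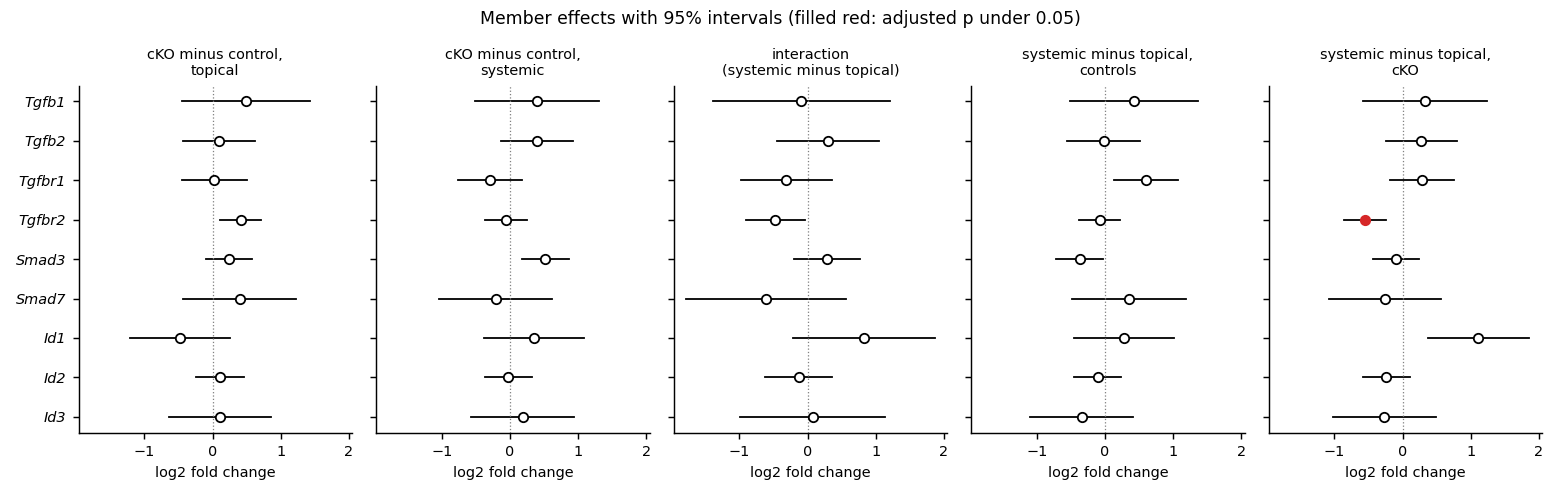
Log2 fold change of the 9 tested members (horizontal axis, with 95% intervals as lines) in 5 comparisons, 1 panel each; filled red marks an adjusted p under 0.05. Only Tgfbr2 in the last panel is red, at -0.55, and the intervals of Tgfb1, Smad7, Id1 and Id3 are the widest.

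The libraries held 11588851 (systemic cKO 2) to 50082771 (systemic cKO 4) counts, and 3 reads, taken as the limit of detection, correspond to 0.0729 to 0.264 CPM. Cyp11b1 itself had at most 6 reads in any library (9 in all topical control, 7 in topical cKO, 2 in systemic control and 4 in systemic cKO libraries), so its loss cannot be read from these counts. Keratinocyte genes dominated: 6 of them, Krt14, Krt5 and Krt1 among them, summed to between 79292 and 113236 CPM of the library total. Markers of cells outside the epithelium were low. The 7 endothelial genes summed to at most 11.5 CPM, the 8 fibroblast genes to at most 42.2 CPM, the 9 Langerhans and myeloid genes to at most 42.3 CPM, the 7 T cell genes to at most 8.85 CPM, the 6 melanocyte genes to at most 35.8 CPM and the 5 smooth muscle and pericyte genes to at most 30.5 CPM, and the leukocyte gene Ptprc was at 0 in 10 libraries. Markers of the skin appendages were higher and varied: the 6 hair follicle genes summed to 816 to 3492 CPM, most of it Krt79, and the 6 sebaceous gland genes to 194 to 3868 CPM, with overlap between all 4 groups. Their part in the results below was not tested. All 5 systemic control libraries and systemic cKO 2 stood apart in 12 predicted genes with satellite-like sequence, which summed to at most 42.5 CPM in the other 14. Systemic control 1, at 79.4 CPM, lay nearer to those 14 than to the rest of the high libraries. The rest ran from 1937 CPM (systemic control 4) to 37287 CPM (systemic cKO 2). Within controls this split is the same as the route, and the 2 cannot be told apart. Within systemic mice it nearly follows genotype, and within cKO it concerns systemic cKO 2 alone. Transcripts that rise during tissue dissociation (11 genes, Fos and Jun among them) summed to 24552 to 32926 CPM in the topical libraries. In the systemic libraries they summed to 36491 to 53442 CPM, without overlap. Not every gene of this list moved that way. In controls, mean Jun (4775 to 4536 CPM) and Fosb (523 to 329) were lower after injection. In cKO mice Ier3 was lower (473 to 398) and Hspa1b about level (72.3 to 71.8).

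Levels of different genes were compared per kilobase of exon. Id3 averaged 250.1 and Id1 203 CPM per kilobase over the 20 libraries, and no library was below 98.15 for either gene. Id2 followed at 9.76 and Tgfbr2 at 5.34 CPM per kilobase. Smad3 (1.28) and Tgfbr1 (1.21) came next. Tgfb2 (0.535), Smad7 (0.519) and Tgfb1 (0.330) were the lowest of the tested members, and Smad6 was at 0.0543. On the scale of level per length, the genes for the type II receptor and the Id proteins stood above those for the type I receptor and the ligands in these cells.

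**Figure D2:**
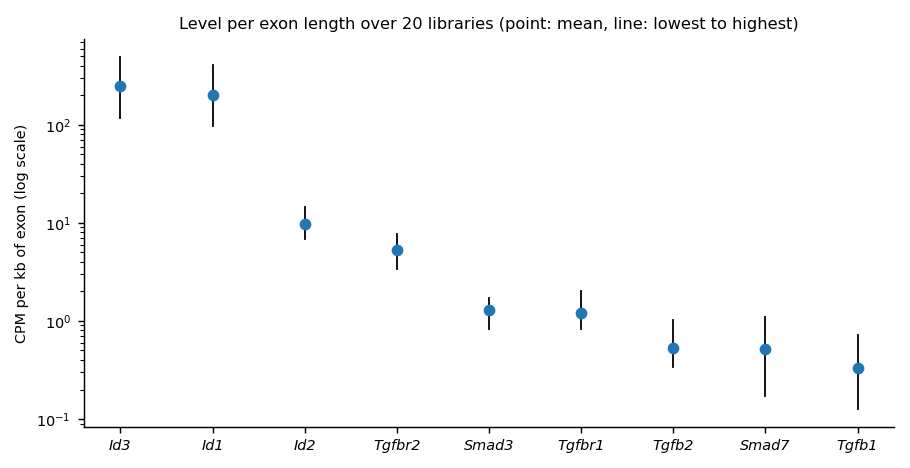
Level of the 9 tested members in CPM per kilobase of exon (vertical axis, log scale) over 20 libraries; points are means and lines run from the lowest to the highest library. Id3 and Id1 lie above 98.15 in every library, and the ranges of Tgfb1, Smad7 and Tgfb2 overlap.

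The ligand genes were sparse. Tgfb1 (ENSMUSG00000002603; GRCm38 chr7:25687002-25705077), the TGF-beta isoform that Langerhans cells need to stay in the epidermis, had 12 to 100 reads per library. It was at 1.21 ± 0.593 CPM in topical control, 1.69 ± 0.821 in topical cKO, 1.61 ± 0.797 in systemic control and 2.14 ± 1.36 in systemic cKO mice (mean ± SD, n = 5 in this and all later values). Within systemic cKO mice alone it ran from 0.636 CPM (library 4) to 3.63 CPM (library 7), so the 4 group means differ by less than the spread within that group. The log2 fold change for cKO was 0.48 (SE 0.45) in topical and 0.39 (SE 0.44) in systemic mice. Tgfb2 (ENSMUSG00000039239; chr1:186622792-186705989), an isoform linked to hair follicle regression, was at 2.89 ± 0.923, 3.03 ± 0.666, 2.78 ± 0.735 and 3.70 ± 1.37 CPM in the same order. Its 95% interval for cKO against control was -0.43 to 0.63 in topical and -0.13 to 0.92 in systemic mice on the log2 scale. In bulk RNA a lower level cannot be told apart from fewer cells that make the transcript.

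Tgfbr2 (ENSMUSG00000032440; chr9:116084293-116175360) encodes the type II receptor that binds TGF-beta and starts the signal. It was at 39.7, 38.5, 49.4, 35.6 and 45.5 CPM in topical control libraries 1, 3, 5, 6 and 7. In topical cKO libraries 2, 3, 4, 5 and 7 it was at 62.3, 42.7, 59.6, 62.8 and 50.4 CPM. Topical cKO 3 thus fell within the range of the topical controls and the other 4 lay above it. After injection Tgfbr2 was at 37.0, 40.3, 40.7, 42.8 and 36.6 CPM in control libraries 1, 3, 4, 5 and 6. In systemic cKO libraries 2, 4, 5, 6 and 7 it was at 46.9, 41.9, 31.2, 41.6 and 28.0 CPM. Among the cKO mice, only systemic cKO 2 reached above the lowest topical library.

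The group means of Tgfbr2 ran from 55.6 ± 8.73 CPM in topical cKO over 41.7 ± 5.56 in topical control and 39.5 ± 2.59 in systemic control to 37.9 ± 7.97 in systemic cKO mice. The 3 lower means differ by less than their spread, and topical cKO stands above them. Between the routes in cKO mice, Tgfbr2 was 1.47-fold lower after injection, which on the log2 scale is -0.55 (SE 0.15, 95% interval -0.86 to -0.25, adjusted p 0.0196). The same contrast in controls gave -0.081 (SE 0.15, adjusted p 0.735). In the topical comparison of genotypes Tgfbr2 had a log2 fold change of 0.41 (SE 0.15) but an adjusted p of 0.776, and in the systemic one -0.058 (SE 0.15). The test of the difference between these genotype effects gave -0.47 (SE 0.21, adjusted p 0.306), so a dependence on route was not established.

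The call for Tgfbr2 rested on single libraries, while its log2 fold change stayed between -0.64 and -0.46 on leaving out 1 library. The call was lost without topical cKO 2 (adjusted p 0.0526), topical cKO 5 (0.0606), systemic cKO 5 (0.0637) or systemic cKO 7 (0.0595). It was also lost in a fit of only the cKO libraries (log2 fold change -0.55, adjusted p 0.0778). The adjusted p was 0.00434 with DESeq2 and 0.00970 without systemic cKO 2, the library that stood apart. In the cKO mice the sum of the dissociation transcripts moved with the route (25416 to 29709 CPM in topical, 36491 to 52501 CPM in systemic libraries). The summed Langerhans and myeloid markers did so too (15.4 to 23.3 against 23.5 to 42.3 CPM), with Itgax at 0 in 18 of 20 libraries. Mean Cd74 (9.24 to 18.2 CPM), H2-Aa (1.46 to 2.46) and H2-Ab1 (2.26 to 3.51) rose from topical to systemic cKO mice. Csf1r (4.13 to 3.37) and Cd68 (0.868 to 0.542) fell, so the marker list did not move as a whole. The part of these transcripts and markers in the Tgfbr2 difference was not tested.

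Tgfbr1 (ENSMUSG00000007613; chr4:47353222-47414931), the type I receptor kinase that phosphorylates Smad2 and Smad3, was highest in systemic controls. It was at 7.57, 6.36, 8.26, 5.71 and 5.36 CPM in topical control libraries 1, 3, 5, 6 and 7 and at 7.34, 13.1, 12.8, 8.08 and 8.87 CPM in systemic control libraries 1, 3, 4, 5 and 6. Systemic controls 3 and 4 were the high ones, and the lowest systemic control lay within the topical range. The log2 fold change between the routes in controls was 0.60 (SE 0.23, adjusted p 0.0711), which missed the threshold. It passed in a fit of only the control libraries (adjusted p 0.0400), with the mitochondrial share of counts as a covariate (0.0367) and without systemic control 1 (0.0433), and the adjusted p was 0.644 with the satellite-like level as a covariate. In cKO mice the level was 6.75 ± 1.57 CPM in topical and 8.28 ± 2.90 CPM in systemic libraries, and the genotype effect was 0.023 (SE 0.23) in topical and -0.29 (SE 0.23) in systemic mice.

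**Figure D3:**
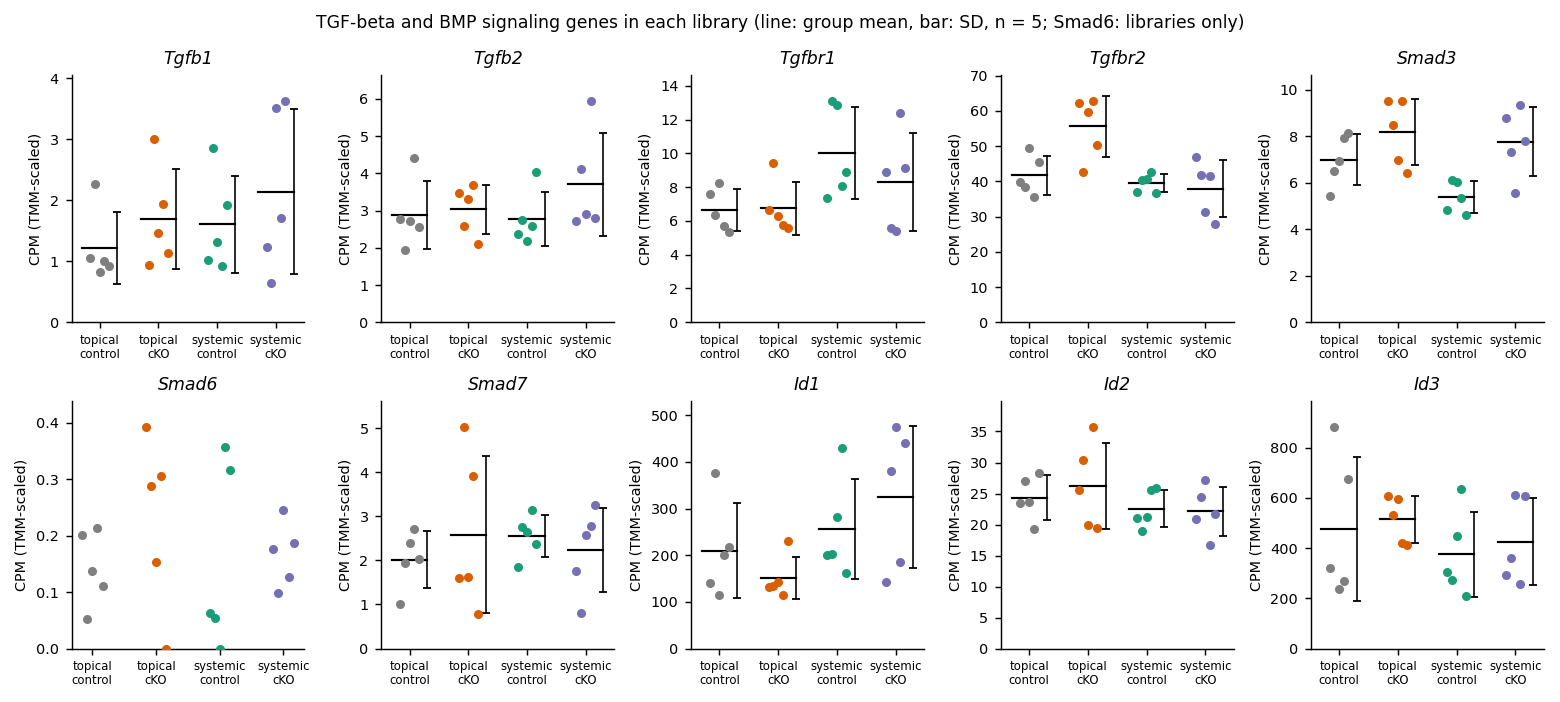
TMM-scaled CPM (vertical axis, from 0) of the 10 members in each of 20 libraries, by group; points are libraries, lines are group means and bars SDs (n = 5), left out for Smad6. The Tgfbr2 panel shows 4 of the 5 topical cKO points at 50.4 to 62.8 CPM, and in the Id1 panel 3 of the 5 systemic cKO points lie at 381 to 474 CPM.

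Smad3 (ENSMUSG00000032402; chr9:63646767-63757994) encodes the Smad that carries the TGF-beta signal to DNA. It was at 4.85, 6.14, 6.06, 5.36 and 4.62 CPM in systemic control libraries 1, 3, 4, 5 and 6, the lowest group. Systemic cKO libraries 2, 4, 5, 6 and 7 had 8.81, 7.33, 5.55, 9.36 and 7.82 CPM. Only systemic cKO 5 fell within the range of the systemic controls. The log2 fold change was 0.52 (SE 0.16, 95% interval 0.18 to 0.86), and the adjusted p of 0.107 missed the threshold, as it did in all 17 other fits of this comparison (0.0555 with DESeq2 to 0.845 with the satellite-like covariate). In topical mice Smad3 was at 7.0 ± 1.09 CPM in controls and 8.19 ± 1.42 CPM in cKO, a log2 fold change of 0.24 (SE 0.16). The interaction was 0.28 (SE 0.23, adjusted p 0.609).

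The inhibitory Smads, which block receptors and are themselves Smad targets, were low. Smad7 (ENSMUSG00000025880), which acts on TGF-beta and BMP receptors, was at 2.02 ± 0.641 CPM in topical control, 2.59 ± 1.79 in topical cKO, 2.55 ± 0.479 in systemic control and 2.23 ± 0.962 in systemic cKO mice. Topical cKO libraries 2, 3, 4, 5 and 7 ranged widely, with 1.61, 5.02, 1.62, 3.91 and 0.784 CPM. This was the widest relative spread of any tested member within a group (coefficient of variation 69.2%), and the genotype effects were 0.40 (SE 0.40) in topical and -0.21 (SE 0.40) in systemic mice. Smad6 (ENSMUSG00000036867; chr9:63953076-64022059), which acts mainly on BMP receptors, had 0 to 13 reads per library. Its reads summed to 13 in topical control, 29 in topical cKO, 20 in systemic control and 18 in systemic cKO libraries, and topical cKO 7 and systemic control 4 had none, so no difference was detectable at this depth.

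Id1 (ENSMUSG00000042745; chr2:152736251-152737410), a direct BMP target, varied between mice more than between groups. It was at 131, 135, 143, 114 and 229 CPM in topical cKO libraries 2, 3, 4, 5 and 7. In systemic cKO libraries 2, 4, 5, 6 and 7 it was at 142, 381, 474, 185 and 441 CPM. Systemic cKO 4, 5 and 7 lay above all topical cKO libraries, and 2 and 6 did not. In topical controls 1, 3, 5, 6 and 7 it was at 141, 376, 114, 201 and 218 CPM, and in systemic controls 1, 3, 4, 5 and 6 at 200.4, 202, 282, 431 and 163 CPM. Both control groups thus held a library near the high level of the systemic cKO mice.

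The group means of Id1 were, from high to low, those of systemic cKO (324 ± 152 CPM), systemic control (256 ± 107), topical control (210 ± 102) and topical cKO (151 ± 45.3). Each mean after the first lay within the SD of the group before it, but the topical control mean lay above the SD range of topical cKO. Between the routes in cKO mice the log2 fold change was 1.11 (SE 0.36, 95% interval 0.37 to 1.85, adjusted p 0.0550), just above the threshold. It passed with DESeq2 (adjusted p 0.0197), with the mitochondrial covariate (0.0232) and without topical cKO 7 (0.0359), systemic cKO 2 (0.0220) or systemic cKO 6 (0.0408), and the highest adjusted p was 0.146, without systemic cKO 5. The route effect in controls was 0.28 (SE 0.35), the genotype effect -0.48 (SE 0.35) in topical and 0.35 (SE 0.35) in systemic mice, and the interaction 0.82 (SE 0.50, adjusted p 0.476). The summed dissociation transcripts differ between the same groups, as given above, and their part in the Id1 levels was not tested.

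Id3 (ENSMUSG00000007872; chr4:136143497-136145755), another BMP target, split the topical controls: libraries 1, 5 and 6 had 320.0, 237 and 268 CPM and libraries 3 and 7 had 881 and 674 CPM. Topical cKO libraries ranged from 413 to 607 CPM, systemic control libraries from 211 to 635 CPM and systemic cKO libraries from 258 to 613 CPM. Topical control 3 was the highest of all 20 libraries, and the 4 groups overlapped throughout. The genotype effects were 0.11 (SE 0.36) in topical and 0.18 (SE 0.36) in systemic mice, with intervals that reach from -0.64 to 0.86 and from -0.57 to 0.94. Effects of that size could not be told from 0 with 5 mice in a group.

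Id2 (ENSMUSG00000020644; chr12:25093799-25097140), an Id gene that also answers to other signals than BMP, was at 24.3 ± 3.57 CPM in topical control, 26.2 ± 6.95 in topical cKO, 22.6 ± 3.02 in systemic control and 22.2 ± 3.94 in systemic cKO mice, and the coefficient of variation within a group was 13.4% to 26.6%. For Id1 it was 30.1% to 48.7%, and for Id3 18.2% to 60.1%. It was lower for Id2 than for Id3 in 3 of the 4 groups, and in topical cKO mice it was higher (26.6% against 18.2%). The interval of the genotype effect of Id2 was -0.24 to 0.45 in topical and -0.37 to 0.32 in systemic mice on the log2 scale.

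Across the 20 libraries the members did not move as a block. Of the 36 pairs among the 9 tested members, the highest Pearson correlation of log2 CPM was 0.57, for Tgfb1 and Smad7, and the lowest -0.64, for Tgfbr2 and Id1. With the group means removed, Id1 and Id3 correlated at 0.78, the highest of all pairs in that measure. Libraries with more Id1 than the rest of their group tended to have more Id3, but not all did. Topical cKO 7 had the highest Id1 (229 CPM) and the lowest Id3 (413 CPM) of its group. These correlations describe 20 libraries in 4 groups that share depth differences and carry no test. The tested genes most like each member over the 20 libraries were then listed. For Tgfbr1 they were Met (r 0.92), the hepatocyte growth factor receptor gene, and Itgav (0.91), the integrin subunit that takes part in releasing latent TGF-beta. For Id1 they were Myd88 (0.90), an adaptor of Toll-like receptors, and Ndor1 (0.84), and for Id3 Inka1 (0.87) and Ier3 (0.82), an early response gene that is also on the dissociation list. Smad7 was most like Ptpn12 (0.88) and Mllt6 (0.87), Tgfb1 most like the predicted genes Gm47138 (0.88) and Gm38043 (0.87), and Tgfbr2 most like Vopp1 (0.83) and Hspa4 (0.81), a heat shock protein gene. For Tgfb2 they were Cmtm8 (0.76) and Cln8 (0.71), for Smad3 Etf1 (0.77) and Ticam1 (0.76), and for Id2 Otx1 (0.75) and Alkbh4 (0.74).

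A wider list of TGF-beta and BMP genes set the members in context. Of its 109 genes, 82 were tested. In the topical comparison of genotypes 0 were called, against 0.129% of all genes, and 4 (4.88%) had an unadjusted p under 0.05, against 5.66%. The median log2 change was 0.16. In the systemic comparison 1 (1.22%) was called, against 1.89%, and 6 (7.32%) had an unadjusted p under 0.05, against 15.3%, with a median of -0.021. The called gene was Tsc22d1, a transcription regulator induced by TGF-beta (log2 change 1.59, SE 0.39, adjusted p 0.0390). It was at 94.4 ± 55.0 CPM in systemic cKO and 31.5 ± 10.0 CPM in systemic control mice, and systemic cKO 2, at 19.5 CPM, stood with the controls. Its adjusted p was 0.9995 (log2 fold change 0.48) with the satellite-like covariate, and the call was gone in 8 of 10 leave-one-out fits (without systemic cKO 4, 5, 6 or 7 or systemic control 3, 4, 5 or 6; adjusted p up to 0.141, without systemic cKO 5). For the interaction 0 were called, against 0.25%, and 7 (8.54%) had an unadjusted p under 0.05, against 14%.

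Between the routes in controls 8 of the 82 were called (9.76%, against 18.3% of all genes), 6 higher and 2 lower after injection, with 24 (29.3%, against 32.9%) at an unadjusted p under 0.05 and a median log2 change of 0.19. The transcription factor gene Snai2, which holds back epidermal differentiation, rose by 0.84 on the log2 scale (SE 0.20, adjusted p 0.00646), from 13.3 ± 2.44 to 23.9 ± 6.30 CPM, without overlap. The latent TGF-beta binding protein gene Ltbp4 rose by 0.82, the cell cycle inhibitor gene Cdkn1a by 0.89, the activin receptor gene Acvr2a by 0.48 and the BMP co-receptor gene Rgma by 0.67. Inha, the inhibin alpha gene, which lies outside the naming rule and is named after its value was seen, rose by 1.21 from 0.703 CPM. Bmp3, a BMP that antagonizes the others, fell by 0.84 on the log2 scale, and Tsc22d1 fell by 1.21. Snai2 and Ltbp4 kept their calls in all 10 leave-one-out fits. Cdkn1a lost its call without systemic control 5 (adjusted p 0.0524), Acvr2a without topical control 3 (0.0604) or systemic control 4 (0.0684), and Rgma without topical control 5 (0.0562), topical control 6 (0.0531) or systemic control 1 (0.0677). Bmp3 lost it in 4 such fits (without topical control 5 or systemic control 1, 5 or 6, up to 0.112). Tsc22d1 lost it in 5 (without topical control 3 or 7 or systemic control 3, 5 or 6, up to 0.0929), and Inha in 6 (without topical control 1, 3, 5 or 6 or systemic control 3 or 6, up to 0.112). Without the filter on low counts Tsc22d1 (0.0765) and Inha (0.0507) lost it too. None of the 8 was called with the satellite-like covariate (adjusted p 0.133 for Rgma to 0.960 for Tsc22d1). The log2 fold changes in that fit were 1.01 for Cdkn1a, 0.86 for Rgma, 0.75 for Ltbp4 and 0.50 for Acvr2a. Those of Inha (0.85), Snai2 (0.58), Bmp3 (-0.63) and Tsc22d1 (-0.10) were smaller than in the main fit. The SE was larger for all 8, as with Rgma (0.27 against 0.20).

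Between the routes in cKO mice 3 of the 82 were called (3.66%, against 9.22% of all genes), and 13 (15.9%, against 23.1%) had an unadjusted p under 0.05. Acvr2a rose by 0.61 (SE 0.14, adjusted p 0.00709), from 13.1 ± 1.26 CPM in topical to 20.1 ± 2.20 CPM in systemic libraries, without overlap, and was called in all 17 other fits of this comparison. It was thus called higher after injection in both genotypes. Mmp2, a matrix protease that can release latent TGF-beta, fell by 0.92 on the log2 scale (SE 0.25, adjusted p 0.0196), and Bmp7, a BMP ligand, fell by 0.75 (SE 0.23, adjusted p 0.0420). Mmp2 lost its call without topical cKO 2 (adjusted p 0.0615) or systemic cKO 6 (0.0567), and Bmp7 did so in 7 of 10 leave-one-out fits (without topical cKO 2, 4 or 7 or systemic cKO 2, 5, 6 or 7; up to 0.116, without topical cKO 7). No other Smad gene and no inhibitor or cofactor of the list was called in any of the 5 comparisons.

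**Figure D4:**
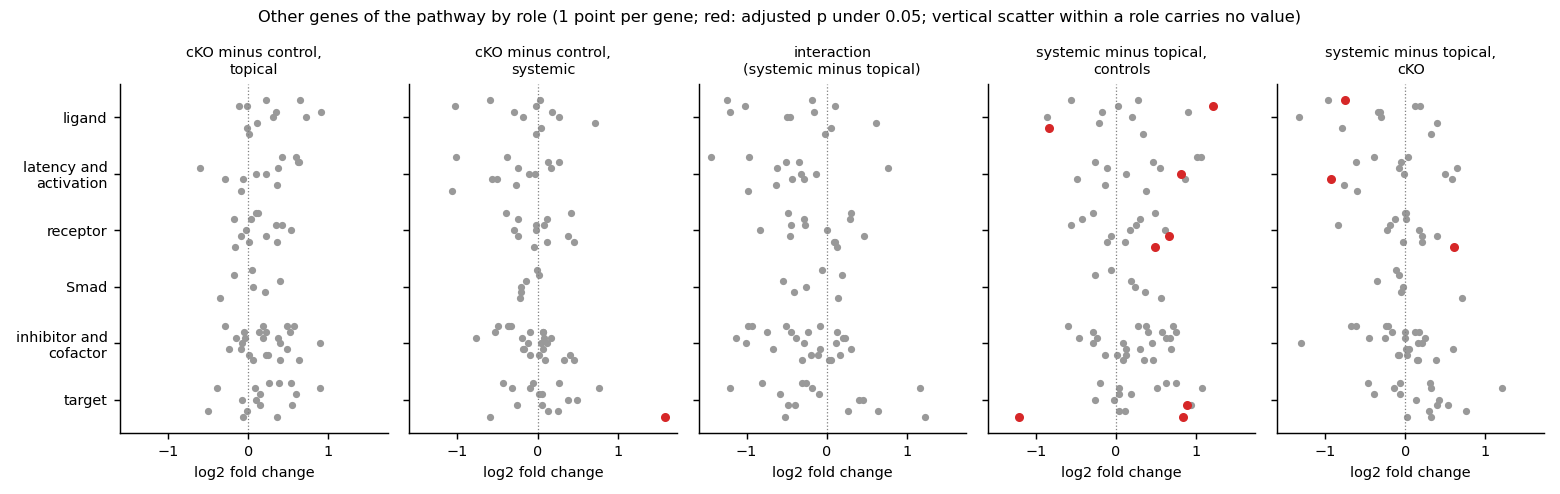
Log2 fold change (horizontal axis) of the 82 tested genes of the wider list, 1 point per gene, by role (rows) in 5 comparisons (panels); red marks an adjusted p under 0.05. Red points number 0, 1, 0, 8 and 3 from left to right.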

How the data were processed

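Whole-number read counts per gene, not normalized, were deposited by the authors for 25719 Ensembl genes in 20 libraries. The submitters' processing notes name STAR, featureCounts and the builds GRCm38 and mm10; versions, strand setting and annotation are not given in the sources used here. All 20 libraries were fitted together in edgeR 4.0.16 (R 4.3.3): default filterByExpr (at least 10 reads in enough libraries, 15 in total), TMM factors, a robust quasi-likelihood model with 1 coefficient per group, two-sided F tests, and Benjamini-Hochberg adjustment over the 12424 genes tested. Calls were made below an adjusted p of 0.05. The SE is the absolute log2 fold change over the root of F, and 95% intervals use the moderated degrees of freedom. The pipeline was tested on simulated data. Summed marker levels use the library total alone. The 12 satellite-like genes were picked by name, and their sums equal those of an earlier account of these data. Exon lengths and coordinates come from GENCODE M21 (GRCm38).

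The members, the wider list and the tests were chosen with earlier results of these data known. The naming rule took the 10 members, up to 5 called genes of the wider list in each direction per comparison, and the 2 tested genes most correlated with each member (log2 CPM, prior count 2). Alternatives were DESeq2 1.42.0 size factors or its Wald test, no filter on counts, only the libraries compared, the label number as a block, the log2 satellite-like level or the mitochondrial percent as a covariate, and leaving out each library.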

Additional observations from a re-analysis of the deposited data

Results flagged for a closer look

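In 40 groups of 5 values (10 members in 4 groups), a single library lay far from the other 4 in 3 cases, and chance alone marks about 1 in 20 groups. Tgfb1 was at 2.26 CPM in topical control 3, where the next highest topical control had 1.06 CPM. Tgfbr1 was at 9.45 CPM in topical cKO 3, where the next had 6.62 CPM. Id1 was at 229 CPM in topical cKO 7, where the next had 143 CPM. No member and no gene of the wider list had a called interaction of genotype and route.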

How the results depend on the processing

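The number of called members stayed at 0 in both genotype comparisons and in the interaction under every alternative run. For route in controls it was 0, and 1 with only the libraries compared or with the mitochondrial covariate (Tgfbr1), and 0 to 1 on leaving out 1 library. For route in cKO it was 1, and 2 with the DESeq2 Wald test or the mitochondrial covariate (Id1 beside Tgfbr2), 0 with only the libraries compared, and 0 to 2 on leaving out 1 library. Whether the label numbers pair the mice was not settled. Deviations from the group mean of same-numbered libraries correlated at -0.31 to 0.34, over 0.1 in 6 of 14 pairs. Between genotypes the values were -0.14, 0.34 and 0.27 in topical mice (numbers 3, 5 and 7). In systemic mice they were -0.018, 0.17 and 0.24 (numbers 4, 5 and 6). The main fit did not use the label number. With that number as a replicate block, Tgfbr2 between the routes in cKO was -0.57, and no member's call changed; among the wider list Cdkn1a (0.80) and Acvr2a (0.47) for route in controls and Bmp7 (-0.64) for route in cKO lost theirs. The wider list of 82 genes held 19 called genes for route in controls with the mitochondrial covariate (28.1% of all genes were called), 14 with only the libraries compared (20.7%), 13 with DESeq2 (22.3%) and 0 with the satellite-like covariate (0.982%), and 5 without topical control 3. For route in cKO it held 8 with the mitochondrial covariate (13.8% of all genes), 7 with DESeq2 (12.4%), 1 without topical cKO 2 and 5 without systemic cKO 4, and in the systemic genotype comparison 7 with the mitochondrial covariate (10.6%), 3 without systemic cKO 2 and 0 without the count filter, with only the libraries compared or with the satellite-like covariate. For the interaction it held 1 with the mitochondrial covariate (2.93%). The share of all genes called moved with these settings too.

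Over the 45 member effects, 12 of 306 refits with another setting and 33 of 540 that left out 1 library turned the sign, in each case of an effect that was not called. The cause was not tested. In the topical genotype comparison Tgfbr1 (0.023) became -0.011 with the replicate block, -0.0032 with the satellite-like and -0.041 with the mitochondrial covariate, and Id3 became -0.062 with the block. With the satellite-like covariate the systemic genotype effect of Tgfbr2 became 0.048, of Id1 -0.19 and of Id3 -0.11, the interaction of Tgfb1 0.26 and of Id3 -0.27, and the route effect in controls of Tgfb2 0.14 and of Id3 0.0024; the interaction of Tgfb1 became 0.045 with the mitochondrial covariate. On leaving out 1 library the topical genotype effect ran from -0.016 to 0.29 for Tgfb2, -0.13 to 0.11 for Tgfbr1, -0.032 to 0.19 for Id2 and -0.061 to 0.45 for Id3. The systemic one ran from -0.14 to 0.035 for Tgfbr2, -0.38 to 0.035 for Smad7 and -0.11 to 0.065 for Id2. The interaction ran from -0.44 to 0.20 for Tgfb1, -0.22 to 0.0095 for Id2 and -0.27 to 0.35 for Id3. Route effects ran from -0.21 to 0.17 for Tgfb2 in controls and, in cKO, from -0.17 to 0.011 for Smad3 and -0.47 to 0.088 for Smad7. Depth limits Smad6, with 0 to 13 reads per library, and precision is low for Tgfb1 (12 to 100 reads), Smad7 (9 to 153) and Tgfb2 (24 to 168).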
